A study of Mus musculus with 8 samples.

Results

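Wnt16, a secreted Wnt ligand, is described here with 5 genes for secreted Wnt inhibitors (Frzb, Wif1, Notum, Sostdc1, Dkk3) and 2 genes of the receiving cell (Lef1, Axin2) across the cells of the mouse intervertebral disc. These 8 of 31053 measured genes were listed by name because earlier results of the same data had shown their levels to differ between cell types or ages, so their levels are descriptions and carry no test. All 8 names were found once in the gene tables of both ages. The mice carried Tagln-CreERt2, a tamoxifen-inducible Cre recombinase under the control of the gene for the actin-binding protein transgelin, and R26tdTomato, a tdTomato reporter in the Rosa26 locus. Tamoxifen was given at postnatal day 5 in both groups, and whole discs of lumbar levels 1 to 6 and tail levels 5 to 9 were collected on day 10 (P10) or after 8 weeks (8W). By design the reporter is limited to cells in which the Tagln promoter was active around the time of tamoxifen and their descendants. No group lacked the Cre, the reporter or tamoxifen, so reporter signal without them was not measured. The labels give 4 samples for either age, yet their droplet single-cell RNA counts sit together in 1 matrix per age, and nothing ties a cell to its sample. With 1 library for each age, an age difference and a library difference cannot be told apart and none could be tested.

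The filters kept 6809 P10 cells and 6343 8W cells, at median depths of 18143 and 14685 unique molecular identifiers (UMIs, counted RNA molecules), and 12 barcodes occurred in both libraries. Cells fell into 28 clusters, formed without the 8 genes and without the other genes of the Wnt list used below. Clusters were named only from marker genes. The gel-like centre of the disc, the nucleus pulposus (NP), which descends from the notochord, was represented by 288 NP-like cells at P10 and 2302 at 8W, with the NP markers Krt8 at 3765 and 2828 counts per 1000000 UMIs (CPM) and Car3 at 21970 and 18274 CPM. In each NP-like cluster 7 of the 12 listed NP markers were raised. Others were low in the class: Noto had 0 UMIs at both ages and Shh stood at 0.482 and 1.23 CPM. Foxa1 stood at 4.18 and 3.76 CPM and Foxa2 at 4.18 and 2.28 CPM. Chondrocyte-like cells numbered 4841 and 1307, hypertrophic chondrocyte-like cells 243 and 131, and Schwann-like cells of P10 59. The chondrocyte-like name rests on at least 11 markers found in 50% of cells or more, not on raised markers. In clusters 6, 8 and 23 of that class 1 of 13 chondrocyte markers was raised. Cells with tendon markers, as known for the outer annulus, formed cluster 5 at P10 (714 cells) and clusters 24 and 25 at 8W (680 and 503 cells). Cluster 25 had a connective tissue marker and none of its own class among its leading genes, so these clusters are given by number. Clusters 22 (245 cells, led by Ibsp and Myoc) and 26 (791 cells, led by Cilp and Vcan) at 8W met no naming rule and stay unnamed. Both came near one, with 10 chondrocyte markers in at least 50% of cells, where 11 were needed, a limit set after seeing the data. Ibsp and Alpl, among the leading genes of cluster 22, are on the hypertrophic chondrocyte list.

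Wnt proteins bind Frizzled receptors and Lrp5 or Lrp6 at the cell surface. In the canonical branch this stabilises beta-catenin, which enters the nucleus and acts with Tcf and Lef proteins on target genes, among them Axin2, a widely used readout and feedback inhibitor. Secreted proteins hold the signal back: Frzb and Wif1 bind the ligand, Notum removes the lipid that the ligand needs, and Sostdc1 binds Lrp co-receptors and also bone morphogenetic proteins. Dkk3 belongs to the Dickkopf family, and its effect on Wnt signalling varies with the cell.

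Promoters of members are shown because Tcf and Lef proteins bind DNA at a CTTTG core. They are printed where a window with enough bases outside annotated exons was given. Promoter windows from RefSeq (GRCm38.p6) were found for 5 of the 8 genes, and none was given for Notum, Sostdc1 and Dkk3. Each line gives the bases upstream of the transcription start on the plus strand, 5′ to 3′, with every CTTTG or its reverse complement CAAAG in capitals. The Wif1 line ends where an annotated exon begins, and the Frzb window lies almost wholly within an annotated exon and is not printed. Of the 4 Lef1 starts listed, the first is shown. The Wnt16 line is chr6:22287977-22288226, the Wif1 line chr10:121033754-121033959, the Lef1 line chr3:131110047-131110296 and the Axin2 line chr11:108920099-108920348.
Wnt16: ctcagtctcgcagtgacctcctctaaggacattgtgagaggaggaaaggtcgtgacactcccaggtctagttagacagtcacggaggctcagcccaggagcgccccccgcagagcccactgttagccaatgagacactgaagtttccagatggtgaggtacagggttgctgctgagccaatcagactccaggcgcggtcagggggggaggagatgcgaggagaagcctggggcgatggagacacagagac
Wif1: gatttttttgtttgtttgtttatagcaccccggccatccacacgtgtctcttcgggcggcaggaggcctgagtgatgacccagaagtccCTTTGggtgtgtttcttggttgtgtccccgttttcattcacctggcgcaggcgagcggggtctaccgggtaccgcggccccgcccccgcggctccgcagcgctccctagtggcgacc
Lef1: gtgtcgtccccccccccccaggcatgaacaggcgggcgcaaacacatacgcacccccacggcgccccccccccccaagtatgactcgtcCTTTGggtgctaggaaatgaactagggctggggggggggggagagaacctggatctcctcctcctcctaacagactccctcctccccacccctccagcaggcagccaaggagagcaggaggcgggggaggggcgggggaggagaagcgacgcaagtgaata
Axin2: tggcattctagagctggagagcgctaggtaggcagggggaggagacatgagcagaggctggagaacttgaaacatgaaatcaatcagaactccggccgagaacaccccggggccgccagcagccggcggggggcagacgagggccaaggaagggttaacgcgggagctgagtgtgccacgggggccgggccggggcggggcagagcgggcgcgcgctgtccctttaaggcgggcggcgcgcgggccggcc
The core occurred once in the Lef1 line and once in the Wif1 line, and not in the Wnt16 and Axin2 lines. It is common, as 48.6% of 32851 mouse promoter windows of 250 bases hold it on either strand. Of all 8 member windows, counted over the full 250 bases, 6 held it, at Frzb, Wif1 and Lef1 starts. Longer forms that contain this core were searched on both strands as well. The form CTTTGTT was found in 5.03% of windows. CTTTGAA was the next most common, at 4.46%. A window holds CTTTGAT in 3.205% of cases. The share for CTTTGTA was 3.202%, and 14.8% of windows hold at least 1 of these forms. Among all 8 member windows 1 held one, at another Lef1 start that is not shown. A match describes letters in a window and shows no binding, and a missing match says nothing of these factors.

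In the mouse genome (GRCm38, GENCODE) all 8 are protein-coding genes, and coordinates cover the whole gene. Wnt16 (ENSMUSG00000029671) lies at chr6:22288227-22298522 and Sostdc1 (ENSMUSG00000036169) at chr12:36314139-36318452. Frzb (ENSMUSG00000027004) lies at chr2:80411970-80447625, Wif1 (ENSMUSG00000020218) at chr10:121033960-121100650, and Dkk3 (ENSMUSG00000030772) at chr7:112116017-112159057. Notum (ENSMUSG00000042988) and Axin2 (ENSMUSG00000000142) are both on chromosome 11, at chr11:120653788-120661175 and chr11:108920349-108950783. Lef1 (ENSMUSG00000027985) lies at chr3:131110471-131224356.

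Across the cell classes the 8 genes fell into different places. Wnt16 and Sostdc1 were highest in NP-like cells at both ages. Notum and Lef1 were highest in chondrocyte-like cells, Dkk3 in clusters with tendon markers (5 at P10, 24 at 8W), and Wif1 and Frzb were spread over several classes and the unnamed clusters 22 and 26. Axin2 was close to absent, with 122 UMIs among all kept P10 cells and 113 among all 8W cells. Levels are CPM of UMIs summed over the cells of a class. Brackets give exact 95% intervals, Poisson for a level, conditional binomial for a ratio and Clopper-Pearson for a share, and cover counting error only. Levels of different genes are not compared with each other beyond their order across cells.

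Wnt16 was found in NP-like cells and in few others. Its level there was 58.5 CPM (52.6 to 64.8, 364 UMIs in 144 of 288 cells) at P10 and 61.8 CPM (59.5 to 64.2, 2711 UMIs in 970 of 2302 cells) at 8W. NP-like cells held 90.8% of all Wnt16 UMIs at P10 and 96.9% at 8W. The next level at P10, 3.06 CPM in Schwann-like cells, rested on 2 UMIs. At 8W, macrophage-like cells followed at 10.0 CPM from 6 UMIs in 1 cell, then hypertrophic chondrocyte-like cells at 6.16 CPM from 21 UMIs in 3 cells, and these did not differ beyond counting error. In chondrocyte-like cells Wnt16 stood at 0.186 and 0.669 CPM, from 19 and 16 UMIs, and the source of these counts was not tested. The log2 ratio of 8W over P10 in NP-like cells was 0.08 (-0.08 to 0.24), and it lay between -0.29 and 0.33 under the other settings, so no direction between ages held.

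The mean hides a difference among NP-like clusters at 8W. Wnt16 stood at 166 CPM (157 to 174, in 477 of 865 cells) in cluster 19, whose leading genes include Inmt, Irf7 and Slit2. It stood at 70.5 CPM (63.4 to 78.2) in cluster 20, at 33.0 CPM (30.8 to 35.3, in 355 of 1042 cells) in cluster 15, led by Hopx, Cck and Nrn1, and at 12.9 CPM (9.79 to 16.7) in the cycling cluster 9. All 4 intervals were apart. The ratio of cluster 19 to cluster 15 was 5.02 (4.61 to 5.47), on the log2 scale 2.33. It was 2.13 on that scale with cells thinned to 2000 UMIs, where cells with fewer were left out. Thinning was tried because cluster 19 cells were shallower (median 8893 UMIs against 19841). Of all genes with at least 50 UMIs in these 2 clusters together, 2.80% were past 2-fold higher and 7.60% past 2-fold lower in cluster 19, and of the 5 members measured there 1 was higher (Wnt16) and 2 were lower (Sostdc1 and Frzb). Cluster 20 against cluster 15 had 1 of 5 measured members higher (Wnt16) and 0 lower, beside 2.41% and 4.72% of all genes. Cluster 9 against cluster 15 had 1 higher (Wif1) and 1 lower (Wnt16) of 5, beside 7.49% and 2.61%. The Wif1 count there rests on 224 UMIs in 12 cells, 143 of them in 1, and the log2 ratio went from 3.11 to -1.20 without cells carrying markers of another class.

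P10 showed the same kind of split. Cluster 14, led by Car1, Myl7, Tagln and Acta2 and holding 195 of the 288 NP-like cells, had Wnt16 at 99.5 CPM (88.8 to 111). The 48 P10 cells of cluster 15 had it at 15.9 CPM (10.2 to 23.6) and the 38 of the cycling cluster 9 at 12.6 CPM (7.60 to 19.7). Different clusters therefore hold most NP-like cells at each age, cluster 14 at P10 and clusters 15 and 19 at 8W. Within cluster 15, present at both ages, the log2 ratio of 8W over P10 for Wnt16 was 1.05 (0.47 to 1.70), with 24 UMIs in 15 cells at P10.

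**Figure D1:**
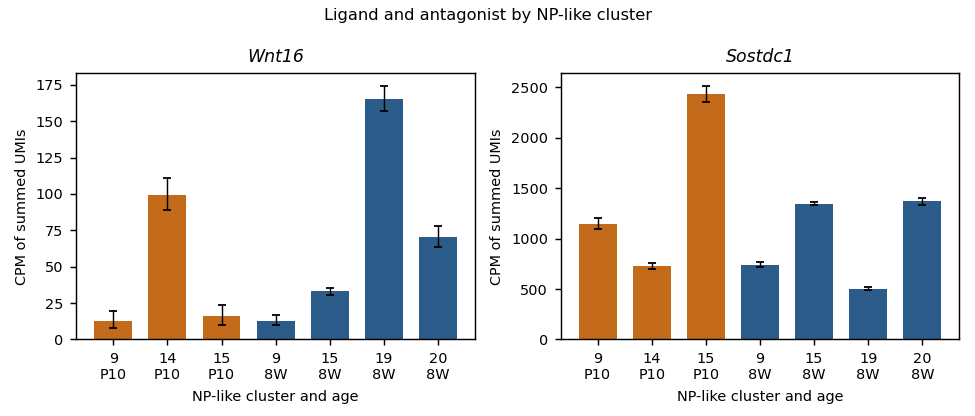
Wnt16 (left) and Sostdc1 (right) in NP-like clusters with at least 25 cells of an age, as CPM of summed UMIs with exact 95% Poisson intervals; orange bars are P10 and blue bars 8W. Wnt16 is highest in cluster 19 at 8W (166 CPM) and cluster 14 at P10 (99.5 CPM), where Sostdc1 is at its lowest for the age (504 and 728 CPM).

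Sostdc1 marked the NP-like class strongly, but its order among the clusters was not that of Wnt16. It stood at 1243 CPM (1216 to 1271, in 256 of 288 cells) at P10 and 1118 CPM (1108 to 1128, in 1917 of 2302 cells) at 8W, a log2 ratio of -0.15 (-0.19 to -0.12). At 8W its level was 1346 CPM in cluster 15, 1369 CPM in cluster 20, 740 CPM in cluster 9 and 504 CPM (489 to 519) in cluster 19. Clusters 15 and 20 did not differ beyond counting error, with a ratio of 1.02 (0.991 to 1.04). At P10 the 48 cells of cluster 15 had 2434 CPM, cluster 9 had 1149 CPM and cluster 14 had 728 CPM (699 to 759). Among clusters with at least 25 cells of an age, which leaves out 7 P10 cells of cluster 19, those richest in Wnt16 (14 at P10 and 19 at 8W) were the lowest in Sostdc1 at their age, although cluster 20 was high in both. The cycling cluster 9 at 8W was below clusters 15 and 20 for both genes. Within cluster 15 Sostdc1 was lower at 8W, with a log2 ratio of -0.85 (-0.90 to -0.81).

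Ligand and antagonist were read out in the same cells after thinning to 2000 UMIs, where cells with fewer were left out. This kept 2205 of the 2302 NP-like cells of 8W. At 8W, 51.2% (45.7 to 56.8) of NP-like cells with a Wnt16 UMI also had a Sostdc1 UMI, against 63.4% (61.2 to 65.6) of those without. Within cluster 15 the shares were 72.2% (60.4 to 82.1) and 77.0% (74.2 to 79.6), and within cluster 19 they were 41.2% (34.6 to 48.0) and 38.2% (34.2 to 42.3). The intervals overlapped within both clusters, so at this depth the lower share over all NP-like cells was not detectable inside a cluster. At P10 the shares over all NP-like cells were 66.7% (49.0 to 81.4) and 63.8% (57.4 to 69.8).

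Outside the NP, Sostdc1 was high in 1 group. Schwann-like cells at P10, which wrap nerve fibres, had 465 CPM (414 to 520) from 304 UMIs in 38 of 59 cells, with at most 87 UMIs in a cell. These cells held 5 UMIs of Car3 and 0 of Krt8, read as under a floor of 3 UMIs, while P10 NP-like cells held 56.6 Sostdc1 UMIs per 1000 Car3 UMIs. The Schwann-like counts were not in the NP ratio. Neither were those of P10 chondrocyte-like cells (378 Sostdc1 UMIs per 1000 Car3 UMIs) and P10 endothelial-like cells (443). The source of the Schwann-like signal was not tested. The 8W library held 1 Schwann-like cell, so no level is given there. In P10 endothelial-like cells all 125 UMIs (56.0 CPM) lay in 1 of 108 cells, and at 8W 70 UMIs (32.2 CPM) lay in 12 of 127 cells, 30 of them in 1. Chondrocyte-like cells stood at 5.20 and 5.40 CPM. There the 8W ratio, 42.2 Sostdc1 UMIs per 1000 Car3 UMIs (35.1 to 50.4), was lower than the 61.2 of NP-like cells, while the P10 ratio, 378, was above the 56.6 of NP-like cells.

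Frzb, a soluble Frizzled-related protein first known from cartilage, had its P10 peak in 1 chondrocyte-like cluster. Cluster 1, led by A2m, Lox and Omd, had 866 CPM (854 to 877, in 916 of 978 cells), whereas the other 5 P10 chondrocyte-like clusters stood between 35.9 and 120 CPM. The P10 class level was 267 CPM (264 to 270) and that of 8W 109 CPM (105 to 113), a log2 ratio of -1.29 (-1.35 to -1.24) that came to -0.88 without doublet removal and -0.84 with a stricter cell filter, short of 2-fold. Hypertrophic chondrocyte-like cells, which carry Col10a1 and Ihh, went the other way, from 83.7 CPM (77.8 to 90.0, in 167 of 243 cells) to 388 CPM (368 to 410, in 124 of 131 cells), a log2 ratio of 2.21 (2.08 to 2.34). At 8W cluster 22 was highest at 689 CPM, and hypertrophic chondrocyte-like cells and cluster 26 (377 CPM) did not differ beyond counting error. Cluster 5 at P10 had 5.46 CPM, and clusters 24 and 25 at 8W had 275 and 148 CPM. In NP-like cells Frzb was at 9.16 and 5.40 CPM, and 49 of its 57 P10 UMIs lay in the cycling cluster 9. The log2 age ratio changed sign with the cells kept: it was -0.76 with all cells, 1.71 without cluster 9, 1.01 without cells rich in chondrocyte markers and 0.18 without doublet removal.

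Wif1, which binds Wnt ligands outside the cell, was the member with the most UMIs. In chondrocyte-like cells it went from 203 CPM (200 to 205) to 528 CPM (519 to 537), a log2 ratio of 1.38 (1.35 to 1.41). Cluster 6 at P10, led by Rbp4 and Gdf5, already stood at 821 CPM (804 to 839), and cluster 23 at 8W, led by Mgp and Hp, stood at 1026 CPM against 250 CPM in cluster 21. In hypertrophic chondrocyte-like cells it went from 11.3 CPM to 95.6 CPM, a log2 ratio of 3.08 (2.75 to 3.42) that dropped to 0.28 when each library was clustered on its own. Osteoblast-like cells stood at 416 CPM (364 to 474, in 25 of 28 cells) at P10 and 338 CPM (310 to 367, in 67 of 94) at 8W. Cluster 5 had 653 CPM at P10, and at 8W cluster 24 had 1307 CPM and cluster 25 418 CPM. The highest level of all was 2843 CPM (2786 to 2900, in 241 of 245 cells) in cluster 22, followed by 1189 CPM in cluster 26. NP-like cells went from 2.89 to 9.80 CPM, past 2-fold, but 1 of the 138 cells with a UMI at 8W held 143 of the 430 UMIs, and without cells carrying markers of another class the log2 ratio went from 1.76 to 0.18. Separate clustering of the libraries gave 0.80, and leaving out the cycling cluster 9 gave 0.82.

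Notum, a secreted enzyme that is itself a target of the pathway, and Lef1, the nuclear partner of beta-catenin, were both highest in chondrocyte-like cells. Notum went from 25.6 CPM (24.6 to 26.6) at P10 to 183 CPM (178 to 189) at 8W, a log2 ratio of 2.84 (2.77 to 2.91). Lef1 went from 45.9 CPM (44.6 to 47.2) to 163 CPM (158 to 168), a log2 ratio of 1.83 (1.77 to 1.89). At 8W cluster 23 was above cluster 21 for both, with Notum at 281 against 129 CPM and Lef1 at 314 against 76.4 CPM. Cluster 22 followed at 112 CPM of Notum and 71.0 CPM of Lef1. At P10 the highest Notum cluster, 6, had 102 CPM of Notum and 6.54 CPM of Lef1, while the other P10 chondrocyte-like clusters had Lef1 between 41.8 and 61.5 CPM. In hypertrophic chondrocyte-like cells Notum stood at 11.6 and 13.2 CPM and Lef1 at 12.6 and 18.2 CPM. Without doublet removal or with a stricter cell filter their log2 age ratios there were 2.58 and 3.01 for Notum and 1.17 and 2.11 for Lef1, against 0.18 and 0.52. NP-like cells had Notum at 0.161 and 0.980 CPM and Lef1 at 3.86 CPM (24 UMIs in 12 cells) and 1.30 CPM (57 UMIs). The Lef1 ratio in NP-like cells, -1.57 on the log2 scale, became 0.33 without doublet removal.

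Axin2, the feedback inhibitor, was low throughout. In chondrocyte-like cells it stood at 0.775 CPM (79 UMIs) at P10 and 2.01 CPM (48 UMIs) at 8W, a log2 ratio of 1.37 (0.82 to 1.91) that came to 0.23 with a stricter cell filter. In cluster 23, where Lef1 was 4.11-fold (3.83 to 4.42) above cluster 21, Axin2 was at 0.799 CPM from 7 UMIs and was below the 2.81 CPM of cluster 21, at a ratio of 0.284 (0.107 to 0.644). Cluster 22 had 3.85 CPM (2.05 to 6.58) from 13 UMIs. Between these clusters 5 of the 6 measured members were past 2-fold higher in cluster 23 (Frzb, Wif1, Notum, Dkk3 and Lef1) and 0 lower, where 6.96% of all genes were higher and 10.8% lower. Over the classes, the first 4 levels in the Axin2 order did not differ from the next beyond counting error at either age. Levels further apart could differ. At P10 the highest class with at least 50 cells, endothelial-like, had 3.58 CPM (1.55 to 7.06) from 8 UMIs. That lay above the 0.775 CPM (0.613 to 0.966) of chondrocyte-like cells. NP-like cells held 1 Axin2 UMI at P10 and 4 at 8W. Axin2 was found in 1.56% of all kept cells at both ages.

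**Figure D2:**
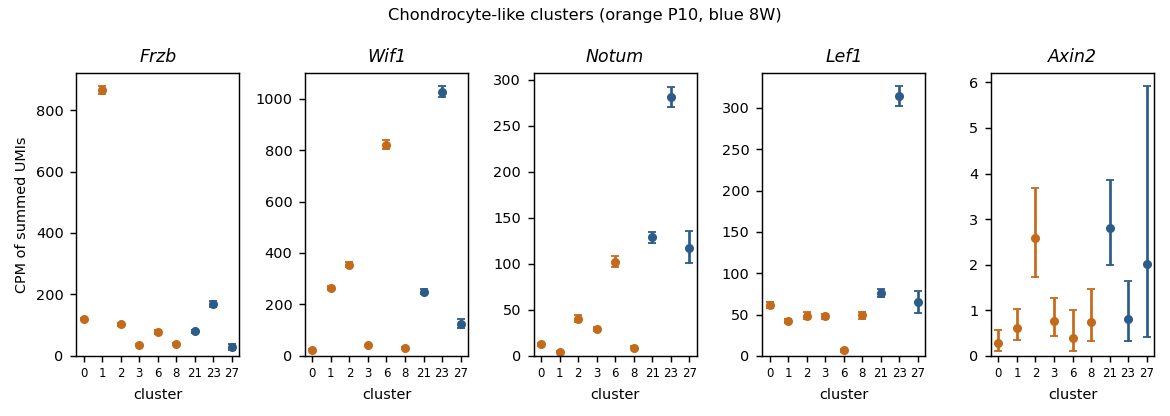
Levels of Frzb, Wif1, Notum, Lef1 and Axin2 in chondrocyte-like clusters with at least 40 cells of an age (horizontal axis: cluster number), as CPM of summed UMIs with exact 95% Poisson intervals; orange is P10, blue 8W. Frzb stands out in cluster 1 (866 CPM), while Wif1, Notum and Lef1 are highest in cluster 23 and Axin2 there is at 0.799 CPM.

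Dkk3 was highest in cluster 5 at P10, at 214 CPM (205 to 223, in 640 of 714 cells), and in cluster 24 at 8W, at 284 CPM, with 182 CPM in cluster 25. Connective fibroblast-like cells had 80.0 CPM (70.3 to 90.7) at P10, and the 25 such cells at 8W had 230 CPM (179 to 292). In chondrocyte-like cells it went from 7.27 to 26.8 CPM, a log2 ratio of 1.88 (1.73 to 2.04), with 53.7 CPM in cluster 23 against 12.1 CPM in cluster 21. NP-like cells had 6.59 CPM (41 UMIs) and 10.6 CPM (463 UMIs), a log2 ratio of 0.68 (0.22 to 1.18).

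Within the chondrocyte-like class and in clusters 24 and 26 outside it, pairs of members were also seen in the same cells after thinning. At 8W, 44.1% (40.0 to 48.2) of cells with Wif1 had Lef1, against 17.0% (14.2 to 19.9) of cells without. Within cluster 21 the shares were 33.3% (25.8 to 41.6) and 10.8% (8.26 to 13.9), while within cluster 23 they were 48.1% (43.3 to 52.9) and 40.5% (32.6 to 48.9). At P10 the Frzb-rich cluster 1 had Wif1 in 17.5% (14.7 to 20.7) of cells with Frzb and 41.2% (35.9 to 46.7) of cells without. In cluster 24 at 8W, which carries tendon markers, the relation was the reverse, with Wif1 in 82.3% (76.0 to 87.6) of cells with Frzb and 55.4% (50.9 to 59.9) of cells without. The unnamed cluster 26 had Notum in 14.8% (12.1 to 17.9) of cells with Wif1 and in 0.613% of cells without. Depth within a cluster was equal after thinning, but shares of cells with a UMI rise with the level of each gene.

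Counted over the members, the most genes past 2-fold between ages were in chondrocyte-like cells, the class in which most members were measured. The members were listed because earlier results of these data showed differences, so these counts are no independent result beside the shares of all genes. Past 2-fold, with at least 50 UMIs, 5 of the 7 measured members were higher at 8W (Wif1, Notum, Lef1, Dkk3, Axin2) and 1 was lower (Frzb). Over all 13828 genes measured in that class 28.1% were higher and 6.44% lower, and the median gene was 0.50 higher on the log2 scale. Relative to the median gene Wif1 and Axin2 were no longer past 2-fold, at log2 ratios of 0.88 and 0.87. Almost no cluster of the class was shared by both ages: clusters 0, 1, 2, 3, 6 and 8 held P10 cells and clusters 21, 23 and 27 8W cells. Of 6 members measured in NP-like cells 1 was higher (Wif1) and 1 lower (Lef1), where 17.5% and 3.22% of 12310 genes were. Of 4 measured in hypertrophic chondrocyte-like cells 2 were higher (Frzb, Wif1), where 18.2% of 9066 genes were higher and 8.72% lower. The median gene stood 0.37 and 0.21 higher in those classes. In endothelial-like cells the 1 measured member, Sostdc1, was within 2-fold at -0.80 on the log2 scale (0.49 without doublet removal), where 8.09% of genes were higher and 2.82% lower. All 125 of its P10 UMIs there lay in 1 cell, so this ratio does not describe the class. In macrophage-like cells no member had 50 UMIs, where 12.5% of genes were higher and 3.91% lower.

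**Figure D3:**
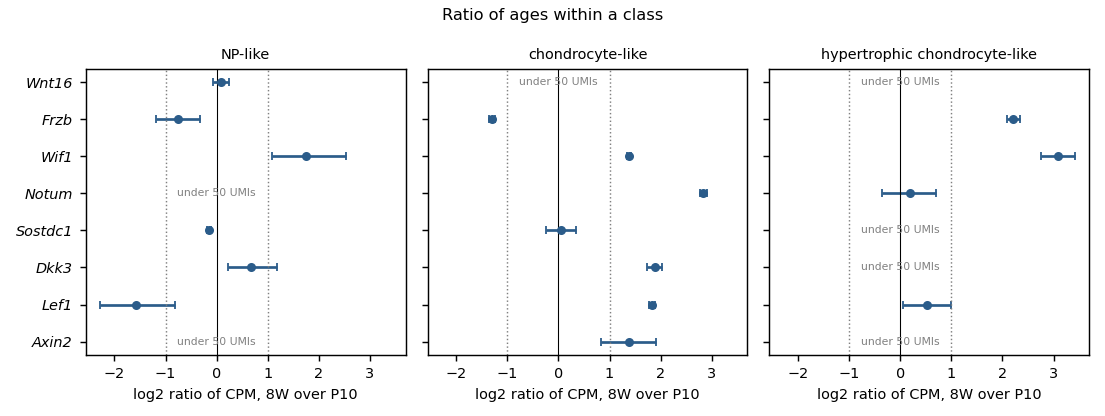
Log2 ratio of CPM, 8W over P10, for each gene within a class, with exact conditional binomial 95% intervals; dotted lines mark 2-fold, and genes under 50 UMIs are not drawn. Frzb lies at -1.29 in chondrocyte-like cells and at 2.21 in hypertrophic chondrocyte-like cells, and Wnt16 in NP-like cells lies at 0.08.

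NP-like cells were split by the reporter. A cell counted as reporter-high with at least 10 UMIs of WPRE4, one of the added sequences in the deposited counts, a limit taken from earlier work on these data. Wnt16 was higher in reporter-high cells at both ages. At P10 it stood at 68.0 CPM in 190 high cells against 35.5 CPM in 98 low cells, a log2 ratio of 0.94 (0.55 to 1.35), and at 8W at 75.6 CPM in 1287 against 41.6 CPM in 1015 cells, a log2 ratio of 0.86 (0.74 to 0.99). Within 8W clusters 15, 19 and 20 the ratio was 0.54 (0.33 to 0.75), 0.57 (0.39 to 0.76) and 0.50 (0.19 to 0.81), within P10 cluster 14 0.59 (0.15 to 1.07), and within cluster 9 at 8W 0.45 (-0.34 to 1.26). Over all 8W NP-like cells the median depth was alike in both groups, at 15449 UMIs in reporter-high and 15487 in reporter-low cells. It was higher in reporter-high cells of cluster 19 (10446.5 against 4897) and of P10 cluster 14 (15768 against 11423), and the part of depth in these ratios was not tested. Over the 8W NP-like cells with at least 2000 UMIs, thinned to that depth, the log2 ratio was 1.08. Splitting the cells by 1 UMI of TDT, the tdTomato sequence, gave 0.24 (-0.07 to 0.55) at P10 and 0.12 (0.01 to 0.23) at 8W. That split put 76 and 657 cells in the high group.

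Sostdc1 differed little between reporter-high and reporter-low cells, at log2 ratios of 0.14 (0.07 to 0.21) at P10 and -0.04 (-0.06 to -0.01) at 8W. Within clusters it was higher in reporter-high cells of cluster 14 at P10 (0.57) and, at 8W, of clusters 9 (0.23), 19 (0.16) and 15 (0.07), and lower in those of cluster 20 (-0.25). None of these 5 intervals included 0. Dkk3 at 8W stood at 12.6 against 7.49 CPM, a log2 ratio of 0.76 (0.46 to 1.06), which was 0.06 (-0.84 to 0.99) after thinning. Frzb at P10 stood at 3.64 against 22.4 CPM, with 16 and 41 UMIs, so that 1 of the 3 measured members was past 2-fold lower, where 0.459% of 7851 genes were lower and 0.751% higher. These 57 UMIs lay in 13 cells, 22 of them in 1 cell and 49 in the cycling cluster 9, and cluster 14 held 7 against 1 UMI. At 8W none of the 6 measured members was past 2-fold in either direction, where 0.198% of 12120 genes were higher and 1.28% lower.

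**Figure D4:**
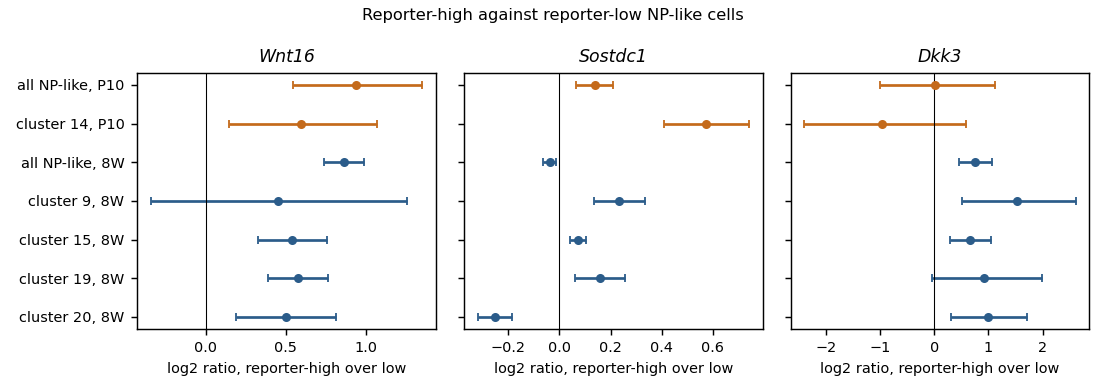
Log2 ratio of reporter-high over reporter-low NP-like cells for Wnt16, Sostdc1 and Dkk3, over all NP-like cells and within clusters, with exact conditional binomial 95% intervals; orange is P10, blue 8W, and the horizontal scales differ between panels. The Wnt16 ratios lie to the right of 0, with the interval of cluster 9 reaching below it, and the Sostdc1 ratios lie on both sides.

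The other genes of the pathway were taken from a list of 106 Wnt genes in 8 groups, of which 98 are not members. In NP-like cells 16 of 59 measured were past 2-fold higher at 8W and 1 lower, with a median log2 ratio of 0.59, beside 17.5%, 3.22% and 0.37 over all genes. Of 14 measured receptors 7 were higher and 0 lower. Lrp5, a co-receptor for canonical Wnts, stood at 29.1 CPM at P10 and 170 CPM at 8W, a log2 ratio of 2.54 (2.33 to 2.77). The Frizzled receptor Fzd7 went from 4.82 to 26.4 CPM (2.46) and the co-receptor Lrp6 from 51.4 to 139 CPM (1.43). Ryk, the receptor with the most UMIs, stood at 65.7 and 91.1 CPM (0.47). In chondrocyte-like cells Lrp5 stood at 3.64 and 6.15 CPM.

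Among ligands, Wnt4 was lower at 8W in NP-like cells and higher in chondrocyte-like cells. It went from 51.7 to 9.53 CPM in NP-like cells, a log2 ratio of -2.44 (-2.65 to -2.23), and from 83.4 to 319 CPM in chondrocyte-like cells, 1.94 (1.89 to 1.98). Wnt6 in NP-like cells went from 1.45 CPM (9 UMIs) to 3.44 CPM, and Wnt5b stood at 13.7 and 16.3 CPM. Wls, which carries Wnt proteins to the cell surface, went from 32.3 to 82.8 CPM (1.36), and Porcn, which attaches their lipid, stood at 7.07 and 6.61 CPM. In the R-spondin module the receptor Lgr4 went from 14.8 to 48.1 CPM (1.70) and the ubiquitin ligase Rnf43 from 3 UMIs to 140 (2.73, 1.15 to 5.02). Of the inhibitors that are not members, Sfrp5, a relative of Frzb, had a log2 ratio of 2.07 from 34 UMIs at P10 and 1008 at 8W and Kremen1 went from 2.41 to 10.4 CPM (2.11).

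The cytoplasmic and nuclear groups are small, so that their counts in NP-like cells are not set apart from the 17.5% higher and 3.22% lower of all genes. Of 14 measured cytoplasmic genes 1 was past 2-fold, Dact3 from 11.7 to 25.9 CPM (1.15), while Ctnnb1, the gene for beta-catenin, stood at 166 and 191 CPM (0.21). Of 12 nuclear genes the corepressor Tle4 was higher, from 20.2 to 52.7 CPM (1.38), and Lef1 lower. Of the targets, Myc went from 30.4 to 98.1 CPM (1.69), while T, the notochord factor brachyury, stood at 1360 and 1480 CPM (0.12) and Ccnd1 at 83.1 and 125 CPM (0.59). In chondrocyte-like cells 23 of 71 measured genes that are not members were higher (32.4%) and 4 lower (5.63%), close to the 28.1% and 6.44% of all genes, with a median log2 ratio of 0.58 beside 0.50 for all genes. There Ctnnb1 went from 190 to 450 CPM (1.24) and Myc from 55.6 to 223 CPM (2.01). With members included, 9 of 14 targets (64.3%) were higher in that class and 0 lower, beside the same 28.1% and 6.44%. The 9 include Notum, Lef1 and Axin2, members listed because earlier results of these data showed differences, so the share is no independent result. They also include T, while the NP marker Car3 went from 13.8 to 128 CPM in this class. The part of NP RNA in the T value was not tested.

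Over the 19 class-by-age groups with at least 50 cells, the genes whose log2(CPM + 1) ran most like each member were found by Pearson's r among 12452 genes. The groups of an age share a library, and the values are descriptions. Wnt16 ran most like Dsc3 (0.94), a desmosomal cadherin, then Ppp2r2b (0.92) and Mlana (0.92), but none of these was among its 3 nearest by Spearman's rho, which were Rad1, Angptl6 and Hddc3. Between 0 and 2 of the 3 nearest genes of each member were shared by both measures. Sostdc1 ran most like Cdh6 (0.95), a cadherin, then Rab38 (0.94) and Epb41l4a (0.92). Dkk3 was nearest to Col8a2 (0.92), Mettl24 (0.86) and Ltbp3 (0.85), and Wif1 to Hoxa11 (0.92), Itm2c (0.92) and the protease gene Mmp3 (0.91). Frzb was nearest to Prss46 (0.88), Ppp1r1b (0.87) and Ctgf (0.87), Notum to Dcaf12l1 (0.90), Errfi1 (0.90) and Foxc1 (0.89), and Lef1 to Mcoln2 (0.86), Sim2 (0.85) and Srxn1 (0.85). For Axin2, with few UMIs, the nearest were Taf4b (0.82), Cnksr3 (0.81) and Rasl11a (0.79). Between members r was 0.82 for Wif1 and Notum, 0.77 for Frzb and Notum, 0.74 for Wnt16 and Sostdc1, 0.73 for Wif1 and Dkk3 and 0.71 for Notum and Lef1, while it was 0.32 for Lef1 and Axin2.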

How the data were processed

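Per the file headers, the authors made the matrices with Cell Ranger 3.1.0. The submitters' processing notes name the builds mm10 and GRCm38 and Seurat 3 with no stated role; other settings are not given in the sources used here. The deposited matrices hold raw UMI counts per gene and cell barcode, and for exogenous sequences (WPRE4, TDT); the deposited lists of barcodes and features hold other values, namely names. Gene positions came from GENCODE for GRCm38.

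Barcodes with fewer than 500 genes, fewer than 1000 UMIs or over 15% mitochondrial UMIs were dropped; 6999 of the 7690 P10 barcodes passed, as did 6481 of the 7597 from 8W. Doublets were removed by a Scrublet score limit of 0.25 in both libraries, since the automatic threshold at P10 (0.626) called 0 cells; this took 2.71% and 2.13%. Both libraries were clustered together (Scanpy 1.11.5, 2000 variable genes, 30 components, 15 neighbours, Leiden resolution 1) without batch correction. Variable genes excluded the Wnt list, Tagln, hemoglobin, mitochondrial, Xist, Tsix and Y-linked genes. A name needed at least 3 raised markers and 50% of the list of 1 of 17 classes; chondrocyte-like clusters needed 11 markers in at least 50% of cells, a limit set after seeing the data. With 1 library per age no test was run and cells were not taken as replicates. A ratio is called past 2-fold only for genes whose sums hold 50 UMIs or more. The ratio code was tested on simulated data. Members, lists and thresholds were chosen with earlier results of these data known. Named genes are the members, up to 3 genes of each Wnt group past 2-fold between ages in NP-like cells ranked on the end of the interval closer to no change, up to 3 with the most UMIs, and the 3 genes most like each member; examples in the text come from these. Alternatives covered clustering, doublets, cell filters, scaling (edgeR 4.0.16 TMM), thinning, minimum UMIs, fold limit and reporter limits.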

Additional observations from a re-analysis of the deposited data

Results flagged for a closer look

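Frzb went in opposite directions between ages in a pair of classes, with a log2 ratio of 8W over P10 of 2.21 in hypertrophic chondrocyte-like cells and of -1.29 in chondrocyte-like cells. The difference between the classes was not tested, since each age is 1 library. Over the alternatives the first lay between 1.01 and 2.42 and the second between -1.80 and -0.84, so the signs held under these settings. None of them left out P10 cluster 1, which held 21046 of the 27230 Frzb UMIs of P10 chondrocyte-like cells. The other P10 chondrocyte-like clusters stood between 35.9 and 120 CPM, beside 109 CPM for the class at 8W. That 8W class leaves out the unnamed clusters 22 and 26, with Frzb at 689 and 377 CPM. Each had 10 chondrocyte markers in at least 50% of cells, where the name needed 11. The ratio with these clusters in the class was not computed, so the fall in chondrocyte-like cells holds for the class as named.

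Lef1 went from P10 to 8W with a log2 ratio of 1.83 in chondrocyte-like cells and -1.57 in NP-like cells, which was not tested either. The NP-like value rested on 24 UMIs in 12 cells at P10 and turned to 0.33 without doublet removal.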

How the results depend on the processing

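No paired analysis was possible because the cells of each age are not mapped to the samples whose replicate numbers the labels give; for the same reason no replicate could be left out. Of 840 alternative values 526 stayed within their counting interval or within 1.5 times a count. A total of 33 changed sign, 13 of them from a value whose interval excluded 0. Leaving out NP-like cells rich in chondrocyte markers (8 at P10, 29 at 8W), the cycling cluster or the cell with the most UMIs, and thinning the cluster ratios, were chosen after seeing the data. The causes of the changes were not tested.

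The log2 age ratio of Wnt16 in NP-like cells was 0.24 when the libraries were clustered separately, -0.29 scaled to the median gene, -0.26 with TMM factors, 0.33 thinned to 2000 UMIs and -0.12 without the cycling cluster; that of Sostdc1 was -0.092, -0.52, -0.49 and -0.062 under the first 4 and -0.068 without the cell with the most UMIs. Without doublet removal Lef1 there turned to 0.33, Frzb there to 0.18 and Sostdc1 in endothelial-like cells to 0.49. Frzb there also turned to 1.01 without chondrocyte-rich cells and to 1.71 without the cycling cluster. For reporter-high over reporter-low cells, Wnt16 gave 0.24 (P10) and 0.12 (8W) by TDT and 1.08 (8W) thinned. Sostdc1 changed sign at P10 to -0.34 thinned, -0.074 by TDT and -0.22 without the cycling cluster, and at 8W to 0.0047 scaled to the median gene, 0.0025 with TMM and 0.17 by TDT. Without cells carrying markers of another class, Wif1 turned to -0.46 for the 8W reporter split and to -1.20 for cluster 9 over cluster 15. Wnt16 in cluster 19 over cluster 15 was 2.13 thinned. The share of cells with Sostdc1 in cluster 19, with minus without Wnt16, went from 2.96 to -4.86 percentage points at 5000 UMIs.

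Counts of Wnt list genes past the fold limit moved as follows. In NP-like cells the 17 higher became 32 at 1.5-fold; the 2 lower became 1 without doublet removal, thinned, at 200 UMIs, without chondrocyte-rich cells and without the cycling cluster, and 5 scaled to the median gene, with TMM and at 1.5-fold. In chondrocyte-like cells the 28 higher became 17 scaled to the median gene and with TMM; the 5 lower became 3 without doublet removal and 9 scaled to the median gene, with TMM and at 1.5-fold. In hypertrophic chondrocyte-like cells the 14 higher became 30 without doublet removal and with the stricter filter, 2 thinned, 25 at 20 UMIs, 5 at 200 UMIs and 22 at 1.5-fold; the 4 lower became 2 at resolution 0.5, 1 with the stricter filter and at 200 UMIs, 0 thinned and 7 at 20 UMIs. In endothelial-like cells the 3 higher became 6 without doublet removal and with the stricter filter, 1 thinned and at 200 UMIs, 5 without cells carrying markers of another class and at 20 UMIs, and 10 at 1.5-fold; the 2 lower became 1 thinned, without those cells and at 200 UMIs. In macrophage-like cells the 0 higher became 1 at resolution 0.5 and with the stricter filter and 3 at 20 UMIs and at 1.5-fold; the 1 lower became 0 thinned and at 200 UMIs.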
